A study of Mus musculus with 21 samples.

Results

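Microglia of adult male offspring whose mothers underwent maternal immune activation (MIA), that is, an immune challenge in pregnancy, were compared after an injection of lipopolysaccharide (LPS) and after saline. The comparison took the 3 MIA LPS libraries of batch 1 and the 5 MIA saline libraries not titled excluded, 8 of the 21 libraries of the series. All mice were 8 to 10 weeks old when used, and microglia were collected from the striatum 18 hours after saline or LPS was injected intraperitoneally, the LPS at 4500 endotoxin units per g of mouse. The cells were sorted on CD11b, P2RY12 and low CD45 after dead cells were gated out, and polyadenylated RNA was sequenced in bulk. Neither the strain nor the agent used in the dams is given in the sources used here. The 11 libraries of control offspring, 5 after LPS and 6 after saline, had the same sort, age, dose and time, and entered the same fit. MIA saline replicate 6 was titled excluded and was left out. MIA LPS replicate 4 was the only library of batch 2, carried its own term in the fit and is shown apart.

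LPS is a component of the outer membrane of gram-negative bacteria that is sensed by TLR4 together with its coreceptors CD14 and MD-2. The receptor signals through MyD88 to NF-kB and through TRIF to interferon regulatory factors, so that cytokine genes and, by way of secreted type I interferon, antiviral genes are transcribed. Microglia, the resident macrophages of the brain, carry a set of genes for surveying the tissue that depends on TGF-beta signals and on factors such as SALL1 and PU.1, and this set is known to be lowered when the cells react to inflammation.

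Estimated counts summed to between 10169023 and 15714029 per MIA saline library and between 13004152 and 17102859 per MIA LPS library of batch 1. Between 17995 and 19559 genes had a count in these 8 libraries, and 12264 had one in MIA LPS replicate 4. Genes of ribosomal RNA took 46.2% to 55.3% of the counts in the 8 libraries. Mitochondrial genes took 4.00% to 5.56% in the 5 saline libraries and 4.17%, 7.30% and 5.54% in the LPS libraries, replicate 2 being the highest of all 21. On the first principal component of the 8 libraries, which held 60.7% of the variance, the saline libraries lay between -58.2 and -50.4 and the LPS libraries between 82.9 and 97.9. The second component held 14.1% and set MIA LPS replicate 2 at -75.0 apart from replicates 1 and 3 at 44.3 and 26.7. The part of its mitochondrial share in that distance was not tested. Because that library stands apart, counts are given with and without it. Litters are not named in the labels, and the p-values therefore describe only how far the libraries of the fit spread. That spread was estimated over 20 libraries, 11 of them of control offspring.

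**Figure D1:**
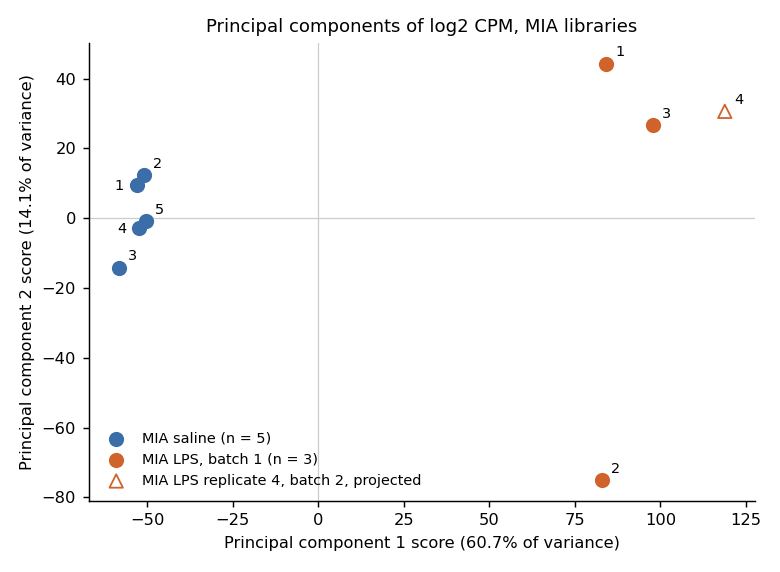
Scores of the MIA libraries on the first (x axis) and second (y axis) principal component of log2 CPM, in score units, with replicate numbers beside the points. The 5 saline libraries lie together at -58.2 to -50.4 on the x axis, and among the LPS libraries replicate 2 lies at -75.0 on the y axis while replicates 1 and 3 lie at 44.3 and 26.7. The open triangle is the batch 2 library, projected onto the same components at 118.8 and 30.6.

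The sort markers were checked first. Levels are given as scaled counts per 1e+06 counts (scaled CPM, with TMM scaling between libraries), in the order of the replicate numbers, and changes as log2 fold changes of LPS over saline, in log2 units. Itgam, which encodes CD11b, stood at 321, 347, 318, 308 and 312 scaled CPM after saline and 349, 261 and 328 after LPS, and the groups overlapped. Its log2 fold change (LPS over saline) was -0.04 ± 0.17 log2 units (SE, edgeR adjusted p = 0.883). Ptprc, which encodes CD45, stood at 275, 309, 329.6, 316 and 286 scaled CPM after saline and 214, 367 and 220.1 after LPS, with replicate 2 above and the other LPS libraries below all saline libraries. Its log2 fold change was -0.18 ± 0.17 log2 units (SE, edgeR adjusted p = 0.415). Ptprc had a log2 fold change of -0.48 without MIA LPS replicate 2, then called. Ptprc was called by limma-voom (adjusted p = 0.0269). P2ry12, the purinergic receptor used as the third sort marker, stood at 2231, 2317, 1898, 2021 and 1783 scaled CPM after saline and 219.8, 269 and 121 after LPS. All LPS libraries lay far below all saline libraries, at -3.33 ± 0.21 log2 units (SE, edgeR adjusted p = 5.09e-12). The cells of both groups had been sorted for P2RY12 protein at the surface.

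Markers of other cell types were counted as summed scaled CPM per library. Their calls are read against the shares of all 14741 genes tested, 20.8% called higher and 18.3% called lower. The 10 listed neutrophil markers summed to between 0 and 0.321 after saline and to 108, 81.1 and 37.5 after LPS, and 8 of the 8 tested were called higher, among them S100a8, S100a9, Ngp and Cxcr2. Camp and Ltf were not called without MIA LPS replicate 2 (edgeR adjusted p = 0.155 and 0.0510), which left 6 of the 8. Ly6g and Elane had too few counts for the test. The 7 monocyte markers summed to 2.80 to 5.94 after saline and 36.1 to 61.0 after LPS. Of the 7, 6 were called higher, among them Ly6c2, Chil3, Plac8 and Fn1, and Ccr2 was called lower. Vcan was called at 1.58 ± 0.47 log2 units (SE, edgeR adjusted p = 0.00892). Vcan had a log2 fold change of 0.92 without MIA LPS replicate 2, no longer called. Vcan lost its call by limma-voom (adjusted p = 0.0715). Astrocyte markers summed to 169 to 259 after saline and 131 to 229 after LPS, and oligodendrocyte and precursor markers to 42.4 to 74.2 and 42.6 to 88.9, with MIA LPS replicate 2 the highest of the LPS libraries in both lists. Of 7 astrocyte markers tested, Gfap, the astrocyte filament protein, was called higher at 3.07 log2 units (edgeR adjusted p = 0.00231), from 0.263, 0, 0.203, 0.551 and 0.400 to 1.78, 2.97 and 2.71. Slc1a3, a glutamate transporter, was called lower at -0.86 log2 units (edgeR adjusted p = 0.000252), from 152, 135, 189, 169 and 199.8 to 104, 102 and 74.0. The sum of endothelial and mural markers was lower after LPS, at 11.0 to 15.8 against 20.6 to 27.7. Its largest member was Pecam1, with means of 15.4 after saline and 8.92 after LPS. Of 5 tested, Pecam1 and Kdr were called lower. Flt1, Rgs5 and Cldn5 were not called, at 0.44, 0.06 and -0.49 log2 units, so the lower sum does not describe the whole list. Border-associated macrophage markers ranged from 14.4 to 35 after saline and from 11.9 to 35.3 after LPS. In that list Mrc1, the mannose receptor CD206, was called lower at -1.75 log2 units (edgeR adjusted p = 3.37e-05), from 13.1, 15.7, 16.9, 21.5 and 20.5 to 6.00, 5.21 and 4.49. Lyve1, a hyaluronan receptor, stood at 0, 0, 0.338, 1.24 and 1.33 after saline and at 0 in every LPS library (edgeR adjusted p = 0.0222), and was no longer called without MIA LPS replicate 1, 2 or 3, nor by limma-voom. F13a1, a coagulation factor chain, was called higher at 2.15 log2 units (edgeR adjusted p = 0.00611), from 0.701, 1.37, 2.90, 5.51 and 4.80 to 9.22, 4.70 and 27.4. F13a1 had a log2 fold change of 1.15 without MIA LPS replicate 3, no longer called. Neuron markers ranged from 6.14 to 12.9 after saline and from 8.62 to 16.0 after LPS. Lymphocyte markers stayed at or below 0.761 in every library, with Cd3e, Trac, Nkg7 and Ms4a1 among those at 0 in all 8. In bulk RNA, fewer cells of a type and less RNA per cell cannot be told apart. The part of the RNA of other cell types in the results below was not tested.

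**Figure D2:**
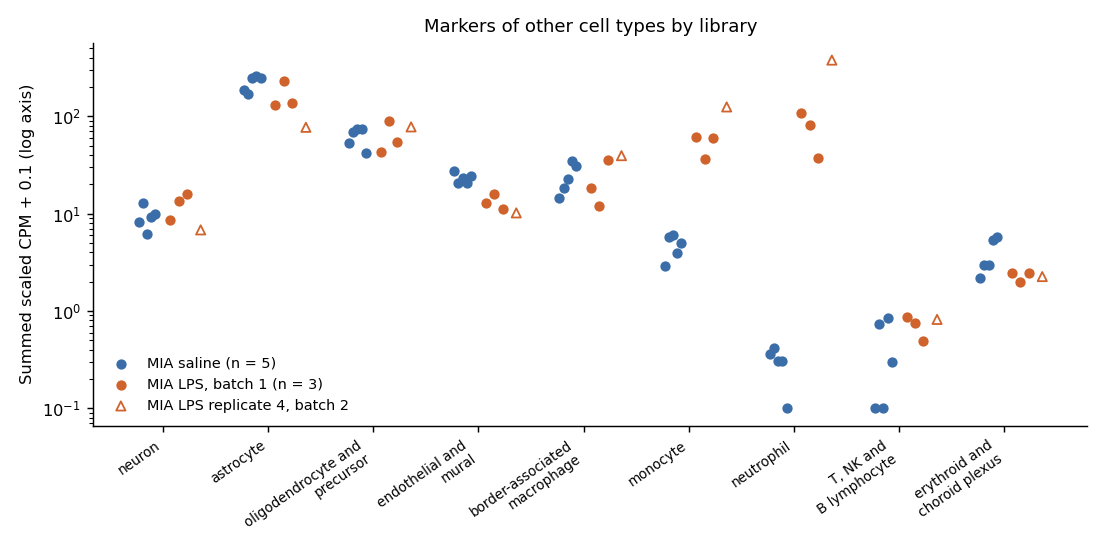
Summed scaled CPM of marker genes of 9 other cell types (y axis, log scale, with 0.1 added so that 0 can be drawn) in each MIA library. Neutrophil sums run from 0 to 0.321 after saline and from 37.5 to 108 after LPS, and monocyte sums from 2.80 to 5.94 and from 36.1 to 61.0, while the other lists overlap or lie lower after LPS. The batch 2 library stands highest for both, at 379 and 125.

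Of 14741 genes tested, 3064 (20.8%) were called higher and 2701 (18.3%) lower after LPS (edgeR's quasi-likelihood test, Benjamini-Hochberg adjusted p under 0.05). Of these, 1597 rose and 1587 fell at least 2-fold, and 230 rose and 105 fell at least 16-fold. Higher genes outnumbered lower ones with TMM scaling but not with RLE scaling (2734 higher, 2997 lower), upper quartile scaling (2636, 3094) or in DESeq2 (2814, 3191). Against the main scaling these shifted the median log2 fold change of all genes tested by -0.07, -0.09 and -0.07. All LPS libraries lay above all saline libraries in 2722 genes (18.5%) and below them in 2660 (18.0%), of which 2453 and 2329 were called. The ID labels carry a second number of unstated meaning, with 3 values among the 8 libraries and no value shared between MIA and control offspring. The main fit took all libraries as independent. Within each of these 3 values the called direction held for 2885 genes called higher and 2662 called lower. Without MIA LPS replicate 2, 2658 genes called higher and 2245 called lower kept their call and direction. Of the 8976 genes not called, 4683 had a 95% confidence interval within 2-fold in either direction, and 4292 had one that reached beyond 2-fold.

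The 26 gene lists below held 615 genes in the table, of which 567 were tested, 299 called higher and 89 lower. Each list's counts are read against the shares of all genes called, 20.8% higher and 18.3% lower, and its median log2 fold change against 0.02 over all genes tested. The members named are the 4 called members with the largest change, the members the list is named for, and some that were chosen after their values were seen.

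**Figure D3:**
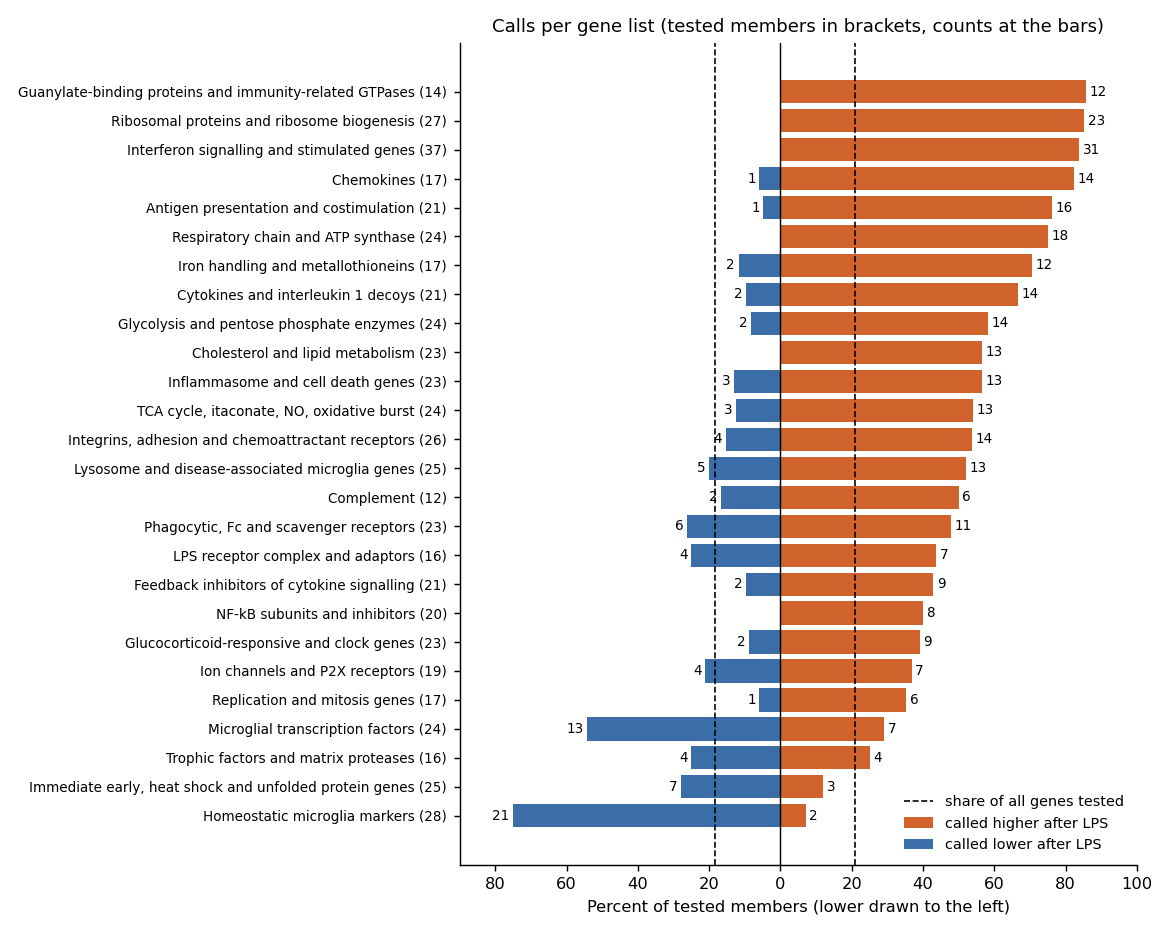
Percent of tested members of each of 26 gene lists called higher (right) or lower (left) after LPS in MIA offspring, with the number of genes at each bar and the number tested in brackets. Dashed lines mark the shares of all 14741 genes tested, 20.8% higher and 18.3% lower. Homeostatic microglia markers reach furthest to the left, with 21 of 28 lower, and interferon, GTPase, chemokine and ribosome lists furthest to the right.

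Where the mean log2 CPM reached 3, the 12 largest rises were in Lcn2, S100a9, Marco, Saa3, Trem1, Il1r2, Pilrb1, Acod1, Ifi211, S100a8, Hp and Mcemp1. Lcn2, which encodes the siderophore-binding protein lipocalin 2, had 0 counts in all 5 saline libraries and stood at 278, 61.1 and 442 after LPS, at least 5924-fold higher when the whole saline group is credited with 3 counts (edgeR adjusted p = 2.35e-06). The bound for Lcn2 was 3857-fold without MIA LPS replicate 3. Such a bound covers counting error alone, because the protocol mentions no molecular identifiers, and the same bound is used for every gene at 0 after saline. S100a9, a subunit of the neutrophil protein calprotectin, also went from 0 in every saline library to 52.6, 35.7 and 12.5, at least 763-fold higher (edgeR adjusted p = 0.000508). Its partner S100a8 stood at 0.263, 0, 0, 0 and 0 scaled CPM after saline and 27.3, 23.5 and 12.7 after LPS, a log2 fold change of 8.63 ± 1.26 log2 units (SE, edgeR adjusted p = 3.78e-05). S100a8 had a log2 fold change of 11.23 without MIA saline replicate 1. Both genes are in the neutrophil list.

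Saa3, an acute phase apolipoprotein, stood at 1.05, 0, 0, 0 and 0.133 scaled CPM after saline and 621, 185 and 1318 after LPS. Its log2 fold change was 11.67 ± 1.22 log2 units (SE, edgeR adjusted p = 1.14e-06). Saa3 had a log2 fold change of 13.98 without MIA saline replicate 1, and 10.86 without MIA LPS replicate 3. Hp, which encodes the haemoglobin-binding protein haptoglobin, stood at 0.0877, 0, 0.0675, 0.0688 and 0 scaled CPM after saline and 23.8, 10.9 and 21.1 after LPS, a change of 8.46 ± 0.71 log2 units (SE, edgeR adjusted p = 9.12e-09). Ifi211, a member of the interferon-inducible p200 family, had 0, 0, 0.135, 0.0688 and 0.133 scaled CPM after saline and 37.9, 21.9 and 42.7 after LPS and rose by 8.70 ± 0.40 log2 units (SE, edgeR adjusted p = 2.93e-14). Reads of this family's close copies may be shared in ways the sources do not state, so its level is uncertain. Pilrb1, an activating paired receptor, changed by 9.78 log2 units (edgeR adjusted p = 4.07e-06), and Mcemp1, a membrane protein of mast cells and myeloid cells, by 8.41 log2 units (edgeR adjusted p = 1.15e-05). Pilrb1 had a log2 fold change of 11.21 without MIA saline replicate 1. Mcemp1 had a log2 fold change of 7.58 without MIA LPS replicate 3.

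The 12 largest falls in the same range of levels included Slc2a5, Adamts16, Npnt and Col6a3. Slc2a5, the fructose transporter GLUT5 that marks microglia in the brain, stood at 95.9, 96.8, 76.6, 87.5 and 95.2 scaled CPM after saline and 3.55, 1.95 and 1.25 after LPS. No library of one group came near the other, and the log2 fold change was -5.35 ± 0.28 log2 units (SE, edgeR adjusted p = 1.90e-13). Adamts16, a secreted metalloprotease, had 25.5, 23.4, 18.4, 15.4 and 16.0 scaled CPM after saline and 0.676, 0.0723 and 0 after LPS, a change of -6.40 ± 0.56 log2 units (SE, edgeR adjusted p = 3.32e-09). Adamts16 had a log2 fold change of -8.83 without MIA LPS replicate 1, and -5.76 without MIA LPS replicate 3. Npnt, the integrin ligand nephronectin, changed by -5.15 log2 units (edgeR adjusted p = 2.81e-11), and Col6a3, a collagen VI chain, by -5.53 log2 units (edgeR adjusted p = 9.19e-11). Tspan18, a tetraspanin, changed by -5.59 log2 units (edgeR adjusted p = 8.16e-09). Tspan18 had a log2 fold change of -6.35 without MIA LPS replicate 2. Tppp, a tubulin-polymerising protein better known from oligodendrocytes, stood at 65.7, 58.7, 54.5, 46.6 and 39.2 scaled CPM after saline and 3.38, 2.17 and 3.10 after LPS. Its change was -4.20 ± 0.24 log2 units (SE, edgeR adjusted p = 7.95e-13) while the oligodendrocyte list as a whole had no member called. Gpr165, an orphan receptor, changed by -4.90 log2 units (edgeR adjusted p = 3.01e-12), Hacd4, an enzyme of fatty acid elongation, by -4.46 log2 units (edgeR adjusted p = 3.48e-08), and Sncaip, which encodes the synuclein partner synphilin 1, by -4.35 log2 units (edgeR adjusted p = 5.45e-10). Gpr165 had a log2 fold change of -5.54 without MIA LPS replicate 1. Cfap74, a gene named for cilia, stood at 41.8, 39.6, 46.8, 42.4 and 51.9 scaled CPM after saline and 1.86, 2.03 and 3.04 after LPS and changed by -4.25 ± 0.21 log2 units (SE, edgeR adjusted p = 5.20e-14). Iqcn, an IQ motif gene, changed by -4.77 log2 units (edgeR adjusted p = 2.84e-09). Iqcn had a log2 fold change of -5.45 without MIA LPS replicate 2.

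**Figure D4:**
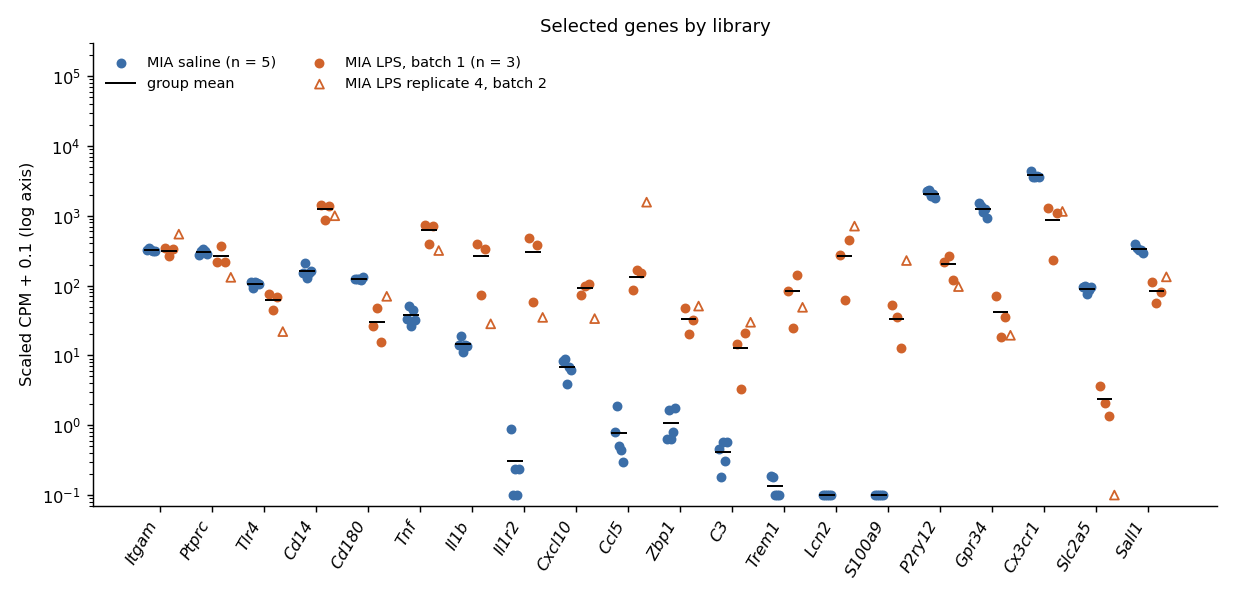
Scaled CPM (y axis, log scale, 0.1 added so that 0 can be drawn) of 20 genes in each MIA library, with black lines at the group means. Itgam and Ptprc overlap between groups. Cytokine and chemokine genes and Trem1 lie higher after LPS, and P2ry12, Gpr34, Cx3cr1, Slc2a5 and Sall1 lie lower in all 3 LPS libraries. Replicate 2 is the lowest of the batch 1 LPS libraries for Il1b, Il1r2, C3 and Cx3cr1.

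In the LPS receptor list, 7 of 16 tested members were called higher and 4 lower, with a median log2 fold change of 0.29, and 5 and 4 without MIA LPS replicate 2. The receptor and its extracellular partner fell while the ligand-delivering coreceptor rose. Tlr4 stood at 112, 90.6, 111, 108 and 106 scaled CPM after saline and 76.4, 44.3 and 67.6 after LPS, and all LPS libraries were below all saline libraries (-0.75 ± 0.17 log2 units, SE, edgeR adjusted p = 0.000766). Ly96, which encodes the TLR4 partner MD-2, stood at 20, 20.2, 15.0, 20.2 and 13.5 scaled CPM after saline and 6.43, 5.86 and 6.14 after LPS, a larger fall of -1.53 ± 0.22 log2 units (SE, edgeR adjusted p = 3.56e-06). The homologous pair Cd180 and Ly86 (RP105 and MD-1), which restrains TLR4 in macrophages, fell with them, Cd180 from 125, 122, 125, 120.1 and 131 to 26.1, 47.7 and 15.4 (-2.07 ± 0.27 log2 units, SE, edgeR adjusted p = 1.80e-06) and Ly86 by -0.93 log2 units (edgeR adjusted p = 2.40e-05). Cd14, the coreceptor that hands LPS to the complex, went the other way, from 151, 208, 129.7, 149.9 and 159 to 1436, 881 and 1377 (2.95 ± 0.20 log2 units, SE, edgeR adjusted p = 9.18e-12). Irak3, an inhibitory kinase of the pathway that is known from endotoxin tolerance, stood at 1.31, 2.17, 1.28, 1.45 and 3.33 scaled CPM after saline and 13.0, 13.2 and 25.7 after LPS and rose by 3.17 ± 0.29 log2 units (SE, edgeR adjusted p = 3.65e-09). Myd88, the shared adaptor, overlapped between groups at 36.7, 50.2, 28.8, 35.9 and 36.8 scaled CPM after saline and 63.7, 38.8 and 69.9 after LPS. It was called at 0.61 ± 0.19 log2 units (SE, edgeR adjusted p = 0.0107). Myd88 had a log2 fold change of 0.53 without MIA LPS replicate 1, no longer called, and 0.45 without MIA LPS replicate 3, no longer called. Myd88 lost its call with the batch 2 library counted as a replicate (edgeR adjusted p = 0.155).

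Among NF-kB subunits and inhibitors, 8 of 20 tested members were called higher and 0 lower, with a median log2 fold change of 0.65, and 10 and 0 without MIA LPS replicate 2. The 8 calls were Relb, the inhibitors Nfkbia, Nfkbib, Tnfaip3 and Tnip1, the genes of nuclear IkB proteins Nfkbiz and Bcl3, and Tank. Bcl3, a nuclear IkB protein, stood at 0.701, 1.93, 0.743, 2.62 and 1.60 scaled CPM after saline and 6.85, 12.7 and 14.8 after LPS (2.90 ± 0.35 log2 units, SE, edgeR adjusted p = 2.73e-07). Tnfaip3, which encodes the ubiquitin-editing inhibitor A20, rose from 333, 434, 290.5, 275 and 305 to 935, 811 and 945 (1.45 ± 0.18 log2 units, SE, edgeR adjusted p = 3.32e-07). Tank, a TRAF-binding adaptor, changed by 1.41 log2 units (edgeR adjusted p = 1.78e-08), and Relb by 1.16 log2 units (edgeR adjusted p = 0.000227). Nfkb1, Rela and Rel, genes of other NF-kB subunits, were not called, with Nfkb1 at -0.14 ± 0.15 log2 units (SE, edgeR adjusted p = 0.488), Rela at 0.16 ± 0.17 log2 units (SE, edgeR adjusted p = 0.491) and Rel at -0.26 ± 0.18 log2 units (SE, edgeR adjusted p = 0.263).

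Of the cytokines and interleukin 1 decoys, 14 of 21 tested members were called higher and 2 lower, with a median log2 fold change of 2.20, and 14 and 3 without MIA LPS replicate 2. Both inflammatory ligands and the proteins that block them were among the calls. Tnf stood at 32.9, 50.2, 26.3, 45.1 and 32.5 scaled CPM after saline and 728, 395 and 719 after LPS, more than any saline library in each LPS library, with replicate 2 the lowest (4.04 ± 0.32 log2 units, SE, edgeR adjusted p = 2.74e-09). Il1b, which encodes interleukin 1 beta, stood at 13.8, 18.8, 11.1, 14.1 and 13.7 scaled CPM after saline and 390.4, 72.2 and 332 after LPS (4.21 ± 0.52 log2 units, SE, edgeR adjusted p = 5.60e-06), and Il1a at 253, 406, 197, 243 and 246 scaled CPM after saline and 820.3, 448 and 1033 after LPS (1.51 ± 0.31 log2 units, SE, edgeR adjusted p = 0.000577). Il6 stood at 4.38, 5.06, 5.06, 7.85 and 5.46 scaled CPM after saline and 53.9, 20.8 and 60 after LPS, a change of 3.00 ± 0.32 log2 units (SE, edgeR adjusted p = 1.17e-07). In all 4 of these genes replicate 2 was the lowest LPS library, and it still lay above all saline libraries.

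The decoy receptor of interleukin 1, Il1r2, had 0.789, 0, 0.135, 0 and 0.133 scaled CPM after saline and 483, 58.4 and 377 after LPS (10.57 ± 0.77 log2 units, SE, edgeR adjusted p = 1.08e-08). Il1r2 had a log2 fold change of 11.93 without MIA saline replicate 1. Il1rn, the receptor antagonist, stood at 0.175, 0, 0.135, 0.413 and 0.799 scaled CPM after saline and 25.7, 107 and 60.4 after LPS (7.61 ± 0.67 log2 units, SE, edgeR adjusted p = 9.28e-08). Il1rn had a log2 fold change of 8.36 without MIA saline replicate 5. Here replicate 2 was the highest LPS library. Il12b, the shared subunit of interleukins 12 and 23, had 0 counts in every saline library and 2.37, 0.362 and 9.44 after LPS, at least 92.2-fold higher and most of it in MIA LPS replicate 3 (edgeR adjusted p = 1.53e-05). The bound for Il12b was 31.0-fold without MIA LPS replicate 3. Lif, a cytokine of the interleukin 6 family, also at 0 after saline, reached 3.64, 0.651 and 2.77, at least 53.5-fold higher (edgeR adjusted p = 1.09e-05). Among the members called lower, Il15, a survival factor of natural killer cells, fell from 9.64, 7.79, 5.54, 7.57 and 6.26 to 1.94, 0.868 and 1.85 (-2.24 ± 0.31 log2 units, SE, edgeR adjusted p = 2.40e-06). Tgfb1, the ligand on which microglial identity depends, fell from 50.7, 46.3, 46.6, 59.2 and 45.2 to 33.4, 25.9 and 37.5 (-0.62 ± 0.17 log2 units, SE, edgeR adjusted p = 0.00445).

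Chemokines recruit leukocytes, and 14 of 17 tested members were called higher and 1 lower, with a median log2 fold change of 2.51. Without MIA LPS replicate 2 the counts were 14 and 2. Ccl5, an attractant of T cells and monocytes, stood at 0.701, 1.77, 0.405, 0.344 and 0.200 scaled CPM after saline and 87.6, 166 and 149.9 after LPS (7.67 ± 0.55 log2 units, SE, edgeR adjusted p = 5.71e-09), and MIA LPS replicate 4 of batch 2 had 1562. Ccl5 had a log2 fold change of 8.37 without MIA saline replicate 2. Cxcl2, a neutrophil attractant, stood at 3.51, 5.46, 3.78, 3.99 and 3.33 scaled CPM after saline and 158, 85.4 and 278 after LPS (5.44 ± 0.41 log2 units, SE, edgeR adjusted p = 5.75e-09). Its relative Cxcl1 was seen in 1 saline library and rose to 3.30, 3.47 and 4.36 (7.31 ± 0.76 log2 units, SE, edgeR adjusted p = 2.55e-08). Cxcl1 had a log2 fold change of 8.70 without MIA saline replicate 3. Cxcl10, the interferon-inducible ligand of CXCR3, stood at 8.24, 8.92, 3.85, 6.68 and 6.06 scaled CPM after saline and 73.7, 99.9 and 105 after LPS (3.79 ± 0.31 log2 units, SE, edgeR adjusted p = 4.52e-09), with all LPS libraries above all saline libraries. Cxcl13, a B cell attractant, had 0 counts after saline and 1.27, 0.579 and 0.330 after LPS, at least 16.5-fold higher (edgeR adjusted p = 0.00160). The bound for Cxcl13 was 10.3-fold without MIA LPS replicate 1.

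Ccl3 and Ccl4, macrophage inflammatory proteins that dissociation itself is known to raise, were already abundant after saline. Ccl3 stood at 131, 254, 105, 200.2 and 119 scaled CPM after saline and 879, 992 and 1294 after LPS (2.71 ± 0.30 log2 units, SE, edgeR adjusted p = 2.59e-07) and Ccl4 changed by 2.51 log2 units (edgeR adjusted p = 1.24e-07). Ccl2, the monocyte attractant, stood at 26.6, 38.7, 18.4, 41.7 and 28.8 scaled CPM after saline and 146, 53.1 and 165 after LPS (1.98 ± 0.46 log2 units, SE, edgeR adjusted p = 0.00261), with replicate 2 the lowest LPS library. Ccl6 was the one member called lower, from 14.4, 15.4, 16.0, 14.1 and 18.7 to 5.41, 6.66 and 3.43 (-1.61 ± 0.28 log2 units, SE, edgeR adjusted p = 5.80e-05). The upstream windows of Cxcl1 and Cxcl2 are shown because they are the called chemokines with the largest change whose 200 bases before the RefSeq start hold an NF-kB consensus site, in capitals and matched on both strands at once.
Cxcl1, GRCm38.p6 chr5:90891045-90891244, plus strand: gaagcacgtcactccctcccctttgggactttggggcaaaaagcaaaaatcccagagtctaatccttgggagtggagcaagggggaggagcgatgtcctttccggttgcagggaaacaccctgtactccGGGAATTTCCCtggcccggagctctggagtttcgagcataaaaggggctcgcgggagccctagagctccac
Cxcl2, GRCm38.p6 chr5:90903699-90903898, plus strand: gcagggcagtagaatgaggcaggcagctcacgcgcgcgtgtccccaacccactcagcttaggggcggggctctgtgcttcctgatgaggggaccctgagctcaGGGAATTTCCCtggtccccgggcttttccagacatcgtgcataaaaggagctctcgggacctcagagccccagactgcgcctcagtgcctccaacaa
The site starts 71 bases before the start of Cxcl1 and 97 bases before that of Cxcl2. Of the 12 tested chemokines with a window, 4 (33.3%) held the consensus on either strand, against 987 (3.65%) of the 27025 genes with a window. A match is a description of the letters and not a measured binding site.

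In the interferon list, 31 of 37 tested members were called higher and 0 lower, with a median log2 fold change of 2.07, and 29 and 0 without MIA LPS replicate 2. Of the receptor genes, Ifngr2 is not reported here, and Ifnar1, Ifnar2 and Ifngr1 did not pass the test. Ifnar1 stood at -0.01 ± 0.12 log2 units (SE, edgeR adjusted p = 0.975), Ifnar2 at -0.14 ± 0.17 log2 units (SE, edgeR adjusted p = 0.569) and Ifngr1 at 0.20 ± 0.16 log2 units (SE, edgeR adjusted p = 0.346). Of the transcription factors downstream, Stat2, Irf7 and Irf9 were called. Stat2, a part of ISGF3, changed by 2.63 log2 units (edgeR adjusted p = 1.34e-09). Irf7, the amplifier of the interferon response, stood at 2.02, 1.29, 1.08, 1.93 and 2.60 scaled CPM after saline and 30.4, 25.9 and 18.4 after LPS (3.80 ± 0.32 log2 units, SE, edgeR adjusted p = 9.85e-10), and Irf9, the DNA-binding part of ISGF3, changed by 1.15 log2 units (edgeR adjusted p = 4.41e-08).

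The effector genes were near 0 after saline. Zbp1, a sensor of nucleic acids that can trigger necroptosis, stood at 0.526, 1.53, 0.540, 0.688 and 1.67 scaled CPM after saline and 47.1, 20 and 31.5 after LPS (5.03 ± 0.44 log2 units, SE, edgeR adjusted p = 1.49e-08). Ifitm3, which blocks viral entry, stood at 1.40, 1.85, 1.62, 0.551 and 3.20 scaled CPM after saline and 50.6, 35.9 and 40.5 after LPS (4.6 ± 0.33 log2 units, SE, edgeR adjusted p = 2.72e-10). Oasl1, an oligoadenylate synthetase-like protein, changed by 4.78 log2 units (edgeR adjusted p = 7.99e-07). Oasl1 had a log2 fold change of 5.66 without MIA saline replicate 4. Rsad2, which encodes the antiviral enzyme viperin, stood at 0.964, 0.161, 0.473, 0.138 and 1.67 scaled CPM after saline and 16.6, 28.3 and 4.36 after LPS (4.56 ± 0.72 log2 units, SE, edgeR adjusted p = 6.01e-05). Rsad2 had a log2 fold change of 3.90 without MIA LPS replicate 2, and 5.26 without MIA saline replicate 5. Ifit3, an antiviral RNA-binding protein, stood at 2.02, 1.77, 1.01, 0.688 and 3.80 scaled CPM after saline and 4.90, 16.9 and 1.65 after LPS and overlapped between groups (2.07 ± 0.71 log2 units, SE, edgeR adjusted p = 0.0281). Ifit3 had a log2 fold change of 2.05 without MIA saline replicate 2, no longer called, 0.80 without MIA LPS replicate 2, no longer called, 1.91 without MIA saline replicate 3, no longer called, and 1.85 without MIA saline replicate 4, no longer called. Ifit3 lost its call with the second ID number as a block, by limma-voom and with no filter on low counts (adjusted p from 0.0736 to 0.373). Oas3, a synthetase that activates RNase L, had 0, 0, 0, 0 and 0.0666 scaled CPM after saline and 2.62, 0.868 and 1.72 after LPS (6.20 ± 1.08 log2 units, SE, edgeR adjusted p = 6.39e-05). Oas3 had a log2 fold change of 7.59 without MIA saline replicate 5.
The windows of Oas3 and Rsad2 are shown because they are the called members with the largest change whose 200 bases before the RefSeq start hold the core of the interferon-stimulated response element (GAAANNGAA, either strand), in capitals.
Oas3, GRCm38.p6 chr5:120777660-120777859, minus strand: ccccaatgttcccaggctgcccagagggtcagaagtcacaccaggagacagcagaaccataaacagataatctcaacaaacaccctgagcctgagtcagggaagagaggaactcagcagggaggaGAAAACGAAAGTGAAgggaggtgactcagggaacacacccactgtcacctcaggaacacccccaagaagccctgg
Rsad2, GRCm38.p6 chr12:26456453-26456652, minus strand: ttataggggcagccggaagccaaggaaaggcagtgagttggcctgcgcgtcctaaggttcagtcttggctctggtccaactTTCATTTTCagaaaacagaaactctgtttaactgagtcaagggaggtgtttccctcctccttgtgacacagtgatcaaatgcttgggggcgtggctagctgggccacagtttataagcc
The capitals of Oas3 span 2 overlapping matches. Of the 28 tested members with a window, 10 (35.7%) held the core, against 1741 (6.44%) of the 27025 genes with a window.

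Guanylate-binding proteins and immunity-related GTPases, which attack vacuoles of intracellular pathogens, were mostly higher: 12 of 14 tested members were called higher and 0 lower, with a median log2 fold change of 2.19, and 11 and 0 without MIA LPS replicate 2. Gbp2 stood at 2.02, 1.21, 1.01, 1.38 and 2.33 scaled CPM after saline and 46.1, 39.9 and 46.6 after LPS, with a tight LPS range (4.79 ± 0.29 log2 units, SE, edgeR adjusted p = 5.93e-12). Iigp1 stood at 0, 0, 0.608, 0.344 and 0.799 scaled CPM after saline and 5.24, 18.9 and 4.82 after LPS (4.67 ± 0.79 log2 units, SE, edgeR adjusted p = 9.54e-05), and Gbp4 changed by 3.91 log2 units (edgeR adjusted p = 0.000111). Iigp1 had a log2 fold change of 3.73 without MIA LPS replicate 2. Gbp4 had a log2 fold change of 3.16 without MIA LPS replicate 2. Irgm1, a regulator of the family, stood at 31.0, 26.6, 32.1, 27.0 and 30.7 scaled CPM after saline and 134, 227 and 102 after LPS (2.39 ± 0.25 log2 units, SE, edgeR adjusted p = 5.70e-08). Tgtp2 changed by 3.19 log2 units (edgeR adjusted p = 8.09e-07), but it has a close copy, so the split of its reads is uncertain. In this list the median by library was highest in replicate 2, at 2.13, 2.88 and 1.83 in replicates 1 to 3.

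Feedback inhibitors divided between those called and those not, as 9 of 21 tested members were called higher and 2 lower, with a median log2 fold change of 0.37. Without MIA LPS replicate 2 the counts were 9 and 2. Socs3, which blocks signals of the interleukin 6 family, stood at 137, 213, 152, 164 and 137 scaled CPM after saline and 493, 539 and 394 after LPS (1.57 ± 0.20 log2 units, SE, edgeR adjusted p = 6.15e-07). Socs2, an inhibitor of growth hormone signals, stood at 0.701, 0.241, 0.203, 0.964 and 0.266 scaled CPM after saline and 4.65, 30.5 and 8.45 after LPS (4.92 ± 0.58 log2 units, SE, edgeR adjusted p = 4.47e-07), and Cish changed by 2.73 log2 units (edgeR adjusted p = 2.35e-06). Socs2 had a log2 fold change of 3.78 without MIA LPS replicate 2. Socs1, the inhibitor of interferon receptors, overlapped at 5.17, 8.84, 4.66, 5.58 and 4.06 scaled CPM after saline and 6.26, 11.1 and 4.56 after LPS and was not called (0.37 ± 0.39 log2 units, SE, edgeR adjusted p = 0.488). Zc3h12a, the RNase regnase 1 that degrades cytokine transcripts, rose from 27.8, 33.9, 21.7, 25.7 and 26 to 67.1, 102 and 84.6 (1.65 ± 0.16 log2 units, SE, edgeR adjusted p = 6.44e-09). Among MAP kinase phosphatases, Dusp2 changed by 2.68 log2 units (edgeR adjusted p = 9.04e-08) and Dusp6 by -1.02 log2 units (edgeR adjusted p = 0.00131).

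Inflammasome and cell death genes had 13 of 23 tested members called higher and 3 lower, with a median log2 fold change of 0.59. Without MIA LPS replicate 2 the counts were 15 and 4. Nlrp3, the inflammasome sensor that LPS is known to prime, stood at 116, 160.3, 99.6, 112 and 136 scaled CPM after saline and 587, 314 and 657 after LPS (2.06 ± 0.22 log2 units, SE, edgeR adjusted p = 4.36e-08), whereas Nlrp1b, another sensor, fell from 51.4, 36.2, 57.3, 45.6 and 55.8 to 28.0, 14.7 and 19.9 (-1.24 ± 0.19 log2 units, SE, edgeR adjusted p = 1.15e-05). The inflammatory caspase Casp1 changed by 0.46 log2 units (edgeR adjusted p = 0.0142). Casp1 lost its call with the batch 2 library counted as a replicate (edgeR adjusted p = 0.685). Of genes of necroptosis, Ripk3 rose from 3.16, 2.33, 2.50, 3.03 and 1.87 to 14.5, 8.25 and 18.3 (2.41 ± 0.25 log2 units, SE, edgeR adjusted p = 2.11e-08) and Mlkl changed by 2.77 log2 units (edgeR adjusted p = 0.0128). Mlkl had a log2 fold change of 3.63 without MIA saline replicate 1. Mlkl lost its call with the batch 2 library counted as a replicate (edgeR adjusted p = 0.0545). Casp8, which restrains necroptosis, fell from 62.4, 64.3, 62.8, 62.3 and 58.8 to 44.0, 36.5 and 36.8 (-0.67 ± 0.13 log2 units, SE, edgeR adjusted p = 0.000122). The antiapoptotic BCL2A1 paralogs Bcl2a1d and Bcl2a1a changed by 3.99 log2 units (edgeR adjusted p = 1.26e-07) and 3.46 log2 units (edgeR adjusted p = 2.04e-11), with the division of reads between these near-identical copies uncertain.

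Antigen presentation and costimulation had 16 of 21 tested members called higher and 1 lower, with a median log2 fold change of 1.18, and 15 and 0 without MIA LPS replicate 2. Cd274, the checkpoint ligand PD-L1, stood at 6.75, 5.30, 3.17, 4.75 and 6.86 scaled CPM after saline and 49.5, 70.9 and 60.5 after LPS (3.49 ± 0.25 log2 units, SE, edgeR adjusted p = 1.54e-10). Cd40, a receptor for T cell help, was close to 0 after saline and stood at 2.37, 6.44 and 5.02 after LPS (6.46 ± 0.69 log2 units, SE, edgeR adjusted p = 3.44e-08). Cd40 had a log2 fold change of 7.38 without MIA saline replicate 5. Nlrc5, the transactivator of MHC class I genes, stood at 5.00, 6.27, 4.93, 5.09 and 9.19 scaled CPM after saline and 74.3, 51.9 and 66.4 after LPS (3.39 ± 0.19 log2 units, SE, edgeR adjusted p = 3.67e-13), and the class I genes B2m and H2-K1 changed by 0.86 log2 units (edgeR adjusted p = 0.000128) and 1.00 log2 units (edgeR adjusted p = 3.67e-05). Cd74, the invariant chain of MHC class II, stood at 12.3, 16.4, 9.65, 14.2 and 18.9 scaled CPM after saline and 153, 95.6 and 123 after LPS (3.11 ± 0.26 log2 units, SE, edgeR adjusted p = 2.43e-09).

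In the complement list, 6 of 12 tested members were called higher and 2 lower, with a median log2 fold change of 0.82 (7 and 1 without MIA LPS replicate 2). Among C1q chains, C1qb stood at 2524, 2745, 1985, 2388 and 2499.8 scaled CPM after saline and 5552, 2900.4 and 3967 after LPS (0.77 ± 0.18 log2 units, SE, edgeR adjusted p = 0.00115), while C1qa (0.44 ± 0.20 log2 units, SE, edgeR adjusted p = 0.0768) and C1qc (-0.11 ± 0.23 log2 units, SE, edgeR adjusted p = 0.751) were not called. C1qa had a log2 fold change of 0.67 without MIA LPS replicate 2, then called. C1qa was called by limma-voom (adjusted p = 0.0143). The central component C3 stood at 0.351, 0.0803, 0.473, 0.207 and 0.466 scaled CPM after saline and 14.5, 3.18 and 20.7 after LPS (5.28 ± 0.66 log2 units, SE, edgeR adjusted p = 2.50e-06). Cfb of the alternative pathway changed by 4.99 log2 units (edgeR adjusted p = 0.000152), and C4b by 4.83 log2 units (edgeR adjusted p = 9.23e-07). Cfb had a log2 fold change of 4.37 without MIA LPS replicate 1, and 7.54 without MIA saline replicate 3. The receptor C5ar1 stood at 82.1, 78.3, 50, 64.6 and 63.8 scaled CPM after saline and 571, 166 and 712 after LPS (2.83 ± 0.28 log2 units, SE, edgeR adjusted p = 4.09e-08), and its decoy relative C5ar2 at 55, 51.2, 52.5, 55.3 and 60.4 scaled CPM after saline and 51.4, 13.9 and 31.8 after LPS (-0.77 ± 0.24 log2 units, SE, edgeR adjusted p = 0.0136). C5ar2 had a log2 fold change of -0.40 without MIA LPS replicate 2, no longer called. C5ar2 lost its call in a fit to the 8 MIA libraries alone (edgeR adjusted p = 0.0761).

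Phagocytic, Fc and scavenger receptors included large changes in both directions, and 11 of 23 tested members were called higher and 6 lower, with a median log2 fold change of 0.70 (12 and 6 without MIA LPS replicate 2). Marco, a scavenger receptor for bacteria, had 0 counts in the saline libraries and 33.6, 4.63 and 57.4 after LPS, at least 725-fold higher (edgeR adjusted p = 0.00108). The bound for Marco was 435-fold without MIA LPS replicate 3. Marco lost its call with the title's replicate number as a block (edgeR adjusted p = 0.0615). MIA LPS replicate 4 of batch 2 had 1228. Msr1, scavenger receptor A, stood at 1.05, 1.21, 1.42, 0.482 and 0.866 scaled CPM after saline and 218, 189 and 438 after LPS (8.13 ± 0.38 log2 units, SE, edgeR adjusted p = 1.10e-12). Trem1, an amplifier of inflammatory signals, stood at 0.0877, 0.0803, 0, 0 and 0 scaled CPM after saline and 83.8, 24.5 and 142 after LPS (11.09 ± 0.70 log2 units, SE, edgeR adjusted p = 6.27e-10), and its relative Trem2, a lipid receptor, fell from 339, 336, 178, 222 and 213 to 127, 58.9 and 69.6 (-1.60 ± 0.30 log2 units, SE, edgeR adjusted p = 0.000221). Trem1 had a log2 fold change of 10.46 without MIA LPS replicate 3. Clec4e and Clec4d, which bind mycobacterial glycolipid, had 0 counts after saline and 5.66, 2.53 and 30.3 and 2.87, 1.59 and 7.66 after LPS, at least 292-fold higher (edgeR adjusted p = 0.000118) and at least 91.9-fold higher (edgeR adjusted p = 3.81e-06). The bound for Clec4e was 93.2-fold without MIA LPS replicate 3. The bound for Clec4d was 50.8-fold without MIA LPS replicate 3. Fcgr4, an activating Fc receptor, stood at 8.15, 8.11, 3.31, 4.96 and 4.80 scaled CPM after saline and 224, 110.2 and 263 after LPS (5.10 ± 0.26 log2 units, SE, edgeR adjusted p = 4.14e-13). The receptor for dying cells Mertk changed by -0.69 log2 units (edgeR adjusted p = 0.000157), and its bridging ligand Gas6 fell from 25.5, 27.9, 31.4, 30.7 and 26 to 3.30, 7.02 and 4.56 (-2.51 ± 0.25 log2 units, SE, edgeR adjusted p = 1.01e-08).

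Homeostatic microglia markers were mostly lower: 2 of 28 tested members were called higher and 21 lower, with a median log2 fold change of -1.50, with the same counts (2 and 21) without MIA LPS replicate 2. Gpr34, a lysophosphatidylserine receptor, stood at 1496, 1366, 1119, 1257 and 941 scaled CPM after saline and 69.8, 18.4 and 35.9 after LPS (-4.90 ± 0.37 log2 units, SE, edgeR adjusted p = 5.92e-10). Gpr34 had a log2 fold change of -5.50 without MIA LPS replicate 1. Cx3cr1, the receptor of neuronal fractalkine, stood at 4363, 3589, 3637, 3761 and 3538 scaled CPM after saline and 1302, 234 and 1104 after LPS (-2.10 ± 0.37 log2 units, SE, edgeR adjusted p = 0.000102), with replicate 2 the lowest LPS library. Tmem119 stood at 651, 649, 510.2, 603 and 619 scaled CPM after saline and 254, 62.7 and 163 after LPS (-1.92 ± 0.30 log2 units, SE, edgeR adjusted p = 2.33e-05), and there too replicate 2 was lowest. Crybb1, a crystallin gene expressed in microglia, changed by -3.45 log2 units (edgeR adjusted p = 5.99e-08). P2ry13, a nucleotide receptor beside P2ry12 in the genome, changed by -1.87 log2 units (edgeR adjusted p = 5.86e-09), and the TGF-beta receptor Tgfbr1 stood at 1261, 1253, 1338, 1333 and 1180.4 scaled CPM after saline and 469, 438 and 299.6 after LPS (-1.66 ± 0.17 log2 units, SE, edgeR adjusted p = 2.12e-08). Csf1r, the receptor on which survival of microglia depends, was not called (-0.30 ± 0.21 log2 units, SE, edgeR adjusted p = 0.273). Csf1r had a log2 fold change of -0.60 without MIA LPS replicate 1, then called. Cd33, an inhibitory sialic acid receptor, was higher, from 415, 403, 406, 391 and 383 to 582, 824 and 583 (0.73 ± 0.15 log2 units, SE, edgeR adjusted p = 0.000449). Cd33 lost its call with the batch 2 library counted as a replicate (edgeR adjusted p = 0.0922).
The windows of P2ry13 and Tgfbr1 are shown because they are the called members with the largest change whose 200 bases before a RefSeq start hold the core of the PU.1 box (GAGGAA, either strand), in capitals.
P2ry13, GRCm38.p6 chr3:59210883-59211082, minus strand: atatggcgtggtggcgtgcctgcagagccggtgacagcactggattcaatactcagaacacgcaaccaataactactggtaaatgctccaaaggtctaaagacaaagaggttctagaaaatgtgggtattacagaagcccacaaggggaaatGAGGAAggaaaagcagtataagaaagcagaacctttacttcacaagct
Tgfbr1, GRCm38.p6 chr4:47386016-47386215, plus strand: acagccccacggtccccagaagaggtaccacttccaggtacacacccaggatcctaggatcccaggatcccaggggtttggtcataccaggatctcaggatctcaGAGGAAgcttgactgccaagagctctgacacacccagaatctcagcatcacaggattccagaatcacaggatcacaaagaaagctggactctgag
Of the 20 tested members with a window, 5 (25.0%) held the core, against 5765 (21.3%) of the 27025 genes with a window, so this short core was about as frequent in the list as in all genes. Tgfbr1 has 2 windows, of which the first with a match is printed.

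Among transcription factors of microglia, 7 of 24 tested members were called higher and 13 lower, with a median log2 fold change of -0.49 (5 and 13 without MIA LPS replicate 2). Sall1, the factor that marks microglia among macrophages, stood at 395, 344, 325, 318 and 289 scaled CPM after saline and 113, 56.9 and 80.2 after LPS (-2.0 ± 0.20 log2 units, SE, edgeR adjusted p = 1.26e-08). Mef2c stood at 413, 436, 464, 416 and 434 scaled CPM after saline and 139.7, 203 and 122 after LPS (-1.48 ± 0.17 log2 units, SE, edgeR adjusted p = 9.04e-08), and Smad3, which carries TGF-beta signals, changed by -1.14 log2 units (edgeR adjusted p = 1.03e-06). Klf2 changed by -1.62 log2 units (edgeR adjusted p = 0.00645). Klf2 had a log2 fold change of -2.32 without MIA LPS replicate 1. Of the C/EBP factors, Cebpa went from 54.2, 61.9, 44.3, 52.8 and 48.1 to 27.1, 19.0 and 18.3 (-1.29 ± 0.19 log2 units, SE, edgeR adjusted p = 6.46e-06), and Cebpb from 33.8, 50.2, 40.1, 59.7 and 51.7 to 194, 38.8 and 232 (1.72 ± 0.42 log2 units, SE, edgeR adjusted p = 0.00375). Cebpb lost its call with the second ID number as a block (edgeR adjusted p = 0.0546). In Cebpb, replicates 1 and 3 were far above and replicate 2 was within the saline range. Spi1, which encodes PU.1, changed by 0.61 log2 units (edgeR adjusted p = 0.00826). Spi1 had a log2 fold change of 0.45 without MIA LPS replicate 3, no longer called. Irf8 was not called (-0.26 ± 0.16 log2 units, SE, edgeR adjusted p = 0.214). Bhlhe40, a repressor linked to lipid handling, was scarce at 0, 0.161, 0.270, 0.551 and 0.200 scaled CPM after saline and 0.423, 2.60 and 0.330 after LPS (2.16 ± 0.77 log2 units, SE, edgeR adjusted p = 0.0275). Bhlhe40 had a log2 fold change of 1.88 without MIA saline replicate 1, no longer called, 2.06 without MIA saline replicate 2, no longer called, 0.60 without MIA LPS replicate 2, no longer called, and 2.10 without MIA saline replicate 5, no longer called. Bhlhe40 lost its call by limma-voom and with the title's replicate number as a block (adjusted p from 0.0656 to 0.346).

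Integrins, adhesion molecules and chemoattractant receptors, which guide leukocyte movement, had 14 of 26 tested members called higher and 4 lower, with a median log2 fold change of 1.34 (16 and 4 without MIA LPS replicate 2). Several of the largest rises are also known from neutrophils or monocytes, whose marker sums were higher in the same libraries. The part of such cells in these rises was not tested. Fpr2 and Fpr1, receptors of bacterial formyl peptides, stood at 7.78, 2.31 and 16.0 and 15.0, 2.97 and 52.9 after LPS. Fpr2 had 0 counts in every saline library and was at least 198-fold higher (edgeR adjusted p = 1.02e-07), and Fpr1 changed by 8.17 log2 units (edgeR adjusted p = 1.13e-05). The bound for Fpr2 was 115-fold without MIA LPS replicate 3. Fpr1 had a log2 fold change of 9.82 without MIA saline replicate 1, and 6.76 without MIA LPS replicate 3. Ccr7, a lymph node homing receptor, was at least 29.6-fold higher (edgeR adjusted p = 7.16e-05) at 0.930, 0.796 and 2.18. The bound for Ccr7 was 19.6-fold without MIA LPS replicate 3. Itgal, the LFA-1 alpha chain, stood at 0.351, 0.0803, 0, 0 and 0.333 scaled CPM after saline and 22.9, 5.64 and 23.1 after LPS (6.79 ± 0.60 log2 units, SE, edgeR adjusted p = 1.35e-08). Cd44, the hyaluronan receptor, stood at 0.351, 0.723, 0.945, 0.620 and 0.466 scaled CPM after saline and 36.4, 10.2 and 70.1 after LPS (5.93 ± 0.57 log2 units, SE, edgeR adjusted p = 1.96e-07). Cd44 had a log2 fold change of 5.19 without MIA LPS replicate 3. Replicate 2 was the lowest LPS library for both.

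On the lower side of that list, Itga6, a laminin receptor chain, stood at 137, 153, 136, 139 and 134 scaled CPM after saline and 62.5, 33.6 and 43.6 after LPS (-1.59 ± 0.18 log2 units, SE, edgeR adjusted p = 7.99e-08). Ccr2, the monocyte receptor of Ccl2, was scarce at 1.75, 3.45, 5.00, 2.13 and 1.87 scaled CPM after saline and 0.338, 0.145 and 1.32 after LPS (-2.19 ± 0.57 log2 units, SE, edgeR adjusted p = 0.00304), opposite to the monocyte markers called higher. Ccr2 had a log2 fold change of -3.54 without MIA LPS replicate 3.

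Ion channels and P2X receptors had 7 of 19 tested members called higher and 4 lower, with a median log2 fold change of 0.18 (8 and 4 without MIA LPS replicate 2). Kcna3, the potassium channel Kv1.3 of activated microglia, stood at 0, 0.402, 1.96, 0.413 and 0.733 scaled CPM after saline and 24.2, 3.76 and 33.6 after LPS (4.79 ± 0.66 log2 units, SE, edgeR adjusted p = 1.09e-05). Kcna3 had a log2 fold change of 5.63 without MIA saline replicate 3. Clic4, an intracellular chloride channel protein, stood at 3.16, 5.06, 3.71, 4.13 and 5.60 scaled CPM after saline and 25.9, 26.5 and 40.9 after LPS (2.84 ± 0.24 log2 units, SE, edgeR adjusted p = 6.47e-10). Hvcn1, the proton channel that serves the oxidative burst, changed by 1.19 log2 units (edgeR adjusted p = 9.46e-05). The ATP-gated channels P2rx4 and P2rx7 moved apart, P2rx4 from 35.1, 36.6, 34.9, 33.7 and 37.4 to 55, 42.8 and 49.9 (0.47 ± 0.13 log2 units, SE, edgeR adjusted p = 0.00543) and P2rx7 from 120.1, 104, 114, 109 and 100.5 to 64.8, 83.6 and 39.1 (-0.81 ± 0.19 log2 units, SE, edgeR adjusted p = 0.00104). Kcnma1, the BK potassium channel, changed by -1.96 log2 units (edgeR adjusted p = 0.0125). Kcnma1 had a log2 fold change of -2.79 without MIA LPS replicate 2, and -1.91 without MIA LPS replicate 3, no longer called.

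Trophic factors and matrix proteases had 4 of 16 tested members called higher and 4 lower, with a median log2 fold change of 0.08 (4 and 4 without MIA LPS replicate 2), shares near those of all genes. Mmp14, a membrane-anchored metalloprotease, stood at 8.5, 8.11, 12.2, 12.3 and 11.1 scaled CPM after saline and 46.2, 44.3 and 108 after LPS (2.66 ± 0.23 log2 units, SE, edgeR adjusted p = 2.88e-09), and Adam8 changed by 3.76 log2 units (edgeR adjusted p = 1.63e-07). Mmp9, a gelatinase that neutrophils store, stood at 0, 0, 0, 0.0688 and 0.200 scaled CPM after saline and 8.71, 0.362 and 0.990 after LPS, most of it in replicate 1 (5.62 ± 1.08 log2 units, SE, edgeR adjusted p = 0.000308). Mmp9 had a log2 fold change of 3.37 without MIA LPS replicate 1, and 6.89 without MIA saline replicate 5. Replicate 1 also had the highest neutrophil and monocyte sums, and their part in this value was not tested. Mmp2, the other gelatinase, fell from 23.1, 13.2, 13.4, 15.5 and 18.4 to 2.71, 2.39 and 3.70 (-2.50 ± 0.37 log2 units, SE, edgeR adjusted p = 7.46e-06). Nrp1, a coreceptor of semaphorins and VEGF, stood at 84.1, 74.1, 65.1, 57.2 and 65.5 scaled CPM after saline and 18.9, 3.69 and 20.1 after LPS (-2.28 ± 0.41 log2 units, SE, edgeR adjusted p = 0.000236). Igf1, a growth factor of reactive microglia, was scarce at 0.701, 0.482, 0.608, 1.93 and 2.60 scaled CPM after saline and 0, 0.0723 and 0.924 after LPS and was not called (-1.84 ± 0.75 log2 units, SE, edgeR adjusted p = 0.0526). Igf1 had a log2 fold change of -1.98 without MIA saline replicate 1, then called, -2.05 without MIA saline replicate 2, then called, -2.02 without MIA saline replicate 3, then called, and -4.75 without MIA LPS replicate 3, then called. Igf1 was called by DESeq2, with the second ID number as a block, under RLE scaling, with the batch 2 library counted as a replicate, with the library titled excluded kept, with a mean CPM of at least 1 required and under upper quartile scaling (adjusted p from 0.00907 to 0.0443).

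Lysosome and disease-associated microglia genes had 13 of 25 tested members called higher and 5 lower, with a median log2 fold change of 0.48 (14 and 5 without MIA LPS replicate 2). The share called lower was near the 18.3% of all genes tested. Spp1, which encodes osteopontin, stood at 0.614, 0.161, 0.203, 1.17 and 2.00 scaled CPM after saline and 184, 249 and 252 after LPS (8.04 ± 0.61 log2 units, SE, edgeR adjusted p = 1.66e-08). Spp1 had a log2 fold change of 8.69 without MIA saline replicate 5. Gpnmb, a glycoprotein of lipid-laden macrophages, had 0 counts after saline and 0.507, 4.27 and 3.24 after LPS, at least 60.7-fold higher (edgeR adjusted p = 6.52e-06). Lgals3, galectin 3, changed by 4.41 log2 units (edgeR adjusted p = 9.28e-06), and Cst7, cystatin F, by 3.02 log2 units (edgeR adjusted p = 1.33e-08). The cathepsins were not alike. Ctsl rose from 475, 545, 328, 419 and 401 to 1669, 890.2 and 1705 (1.71 ± 0.19 log2 units, SE, edgeR adjusted p = 9.28e-08), and Ctsd fell from 5755, 5008, 3673, 4663 and 4421 to 2785, 2106 and 1886 (-1.06 ± 0.17 log2 units, SE, edgeR adjusted p = 1.99e-05). Hexa, a subunit of beta-hexosaminidase, changed by -1.48 log2 units (edgeR adjusted p = 8.66e-06). Apoe, a lipid carrier of disease-associated microglia, overlapped between groups at 226, 95.9, 122, 168 and 203 scaled CPM after saline and 384, 147 and 208 after LPS and was not called (0.60 ± 0.35 log2 units, SE, edgeR adjusted p = 0.191). Apoe was called with the title's replicate number as a block (edgeR adjusted p = 0.00533).

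In glycolysis and the pentose phosphate pathway, 14 of 24 tested members were called higher and 2 lower, with a median log2 fold change of 0.78 (17 and 2 without MIA LPS replicate 2). Pfkfb3, the enzyme that makes the activator of phosphofructokinase, stood at 94.5, 111, 88.6, 79.4 and 91.9 scaled CPM after saline and 819, 1265 and 1084 after LPS (3.50 ± 0.17 log2 units, SE, edgeR adjusted p = 5.20e-14). Slc2a1, the glucose transporter GLUT1, stood at 17.2, 21, 12.9, 10.8 and 15.1 scaled CPM after saline and 41.2, 26 and 58.9 after LPS (1.45 ± 0.19 log2 units, SE, edgeR adjusted p = 1.01e-06), opposite to the fructose transporter Slc2a5. Gpi1, glucose phosphate isomerase, stood at 37.8, 39.7, 32.3, 32.9 and 31.7 scaled CPM after saline and 119, 53.0 and 143 after LPS (1.59 ± 0.19 log2 units, SE, edgeR adjusted p = 3.25e-07), and Pfkp, a phosphofructokinase, changed by 1.64 log2 units (edgeR adjusted p = 0.00185). Pdk1, a kinase that closes the entry of pyruvate into the mitochondrion, fell from 47.7, 45.7, 45.4, 44.5 and 43.7 to 18.4, 12.8 and 13.2 (-1.62 ± 0.14 log2 units, SE, edgeR adjusted p = 1.71e-09). Hk3, a hexokinase of myeloid cells, changed by -1.26 log2 units (edgeR adjusted p = 0.00115). The median over the list was 1.00 and 1.03 in replicates 1 and 3 but -0.14 in replicate 2, within the saline range of -0.19 to 0.30.

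The list of tricarboxylic acid cycle, itaconate, nitric oxide and oxidative burst genes had 13 of 24 tested members called higher and 3 lower, with a median log2 fold change of 0.75 (16 and 1 without MIA LPS replicate 2). Acod1, the enzyme that makes itaconate, stood at 0.614, 0, 0, 0 and 0 scaled CPM after saline and 54.5, 44.6 and 185 after LPS (9.72 ± 0.83 log2 units, SE, edgeR adjusted p = 8.52e-08). Acod1 had a log2 fold change of 13.40 without MIA saline replicate 1, and 8.79 without MIA LPS replicate 3. Cybb, the catalytic subunit of the phagocyte NADPH oxidase, stood at 2.45, 0.482, 0.675, 1.45 and 1.93 scaled CPM after saline and 89.3, 51.9 and 133 after LPS (6.04 ± 0.61 log2 units, SE, edgeR adjusted p = 6.25e-07). Sod2, mitochondrial superoxide dismutase, stood at 31.4, 34.7, 31.9, 30.7 and 35.2 scaled CPM after saline and 257, 258 and 498 after LPS (3.36 ± 0.21 log2 units, SE, edgeR adjusted p = 4.93e-12). Of genes around arginine, Arg1 stood at 0.0877, 0.402, 0.540, 0.551 and 0.933 scaled CPM after saline and 11.4, 2.10 and 20.9 after LPS (4.45 ± 0.67 log2 units, SE, edgeR adjusted p = 2.16e-05) and Ass1 changed by 5.43 log2 units (edgeR adjusted p = 4.80e-06), while Nos2, the inducible nitric oxide synthase, had too few counts for the test. Arg1 had a log2 fold change of 3.67 without MIA LPS replicate 3. Ass1 had a log2 fold change of 6.71 without MIA saline replicate 4. The isocitrate dehydrogenases parted, with Idh3a at 1.58 ± 0.18 log2 units (SE, edgeR adjusted p = 1.02e-07) and Idh2 at -1.26 ± 0.23 log2 units (SE, edgeR adjusted p = 7.88e-05).

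In the list of respiratory chain and ATP synthase genes, 18 of 24 tested members were called higher and 0 lower, with a median log2 fold change of 0.77 (19 and 0 without MIA LPS replicate 2). Atp5b, the catalytic ATP synthase subunit, stood at 53.4, 59.5, 50.3, 54.4 and 53.6 scaled CPM after saline and 138, 89.5 and 142 after LPS (1.18 ± 0.16 log2 units, SE, edgeR adjusted p = 9.86e-07). Cox5a of complex IV changed by 0.94 log2 units (edgeR adjusted p = 0.000240), Sdhd of complex II by 0.90 log2 units (edgeR adjusted p = 0.000126) and Cyc1 of complex III by 0.87 log2 units (edgeR adjusted p = 0.000926).

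Cholesterol and lipid genes had 13 of 23 tested members called higher and 0 lower, with a median log2 fold change of 0.76 (14 and 0 without MIA LPS replicate 2). Ch25h, which makes the antiviral oxysterol 25-hydroxycholesterol, stood at 0.438, 0, 0, 0.275 and 0.200 scaled CPM after saline and 3.21, 10.3 and 16.6 after LPS (5.77 ± 0.67 log2 units, SE, edgeR adjusted p = 9.23e-07). Plin2, a coat protein of lipid droplets, stood at 11.8, 12.8, 9.99, 11.4 and 8.73 scaled CPM after saline and 125, 83.4 and 106 after LPS (3.26 ± 0.21 log2 units, SE, edgeR adjusted p = 9.18e-12), and Fasn, fatty acid synthase, changed by 1.77 log2 units (edgeR adjusted p = 5.86e-07). Abca1, the efflux pump, was not called (0.12 ± 0.14 log2 units, SE, edgeR adjusted p = 0.551).

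Iron genes and metallothioneins had 12 of 17 tested members called higher and 2 lower, with a median log2 fold change of 0.99 (12 and 3 without MIA LPS replicate 2). Fth1, the ferritin heavy chain, stood at 602, 667, 427, 514 and 453 scaled CPM after saline and 2943, 2449.9 and 3041 after LPS (2.40 ± 0.19 log2 units, SE, edgeR adjusted p = 1.85e-10). Slc39a14, a transporter that brings in iron not bound to transferrin, stood at 8.33, 6.91, 7.49, 6.68 and 5.93 scaled CPM after saline and 71.2, 91.6 and 143 after LPS (3.85 ± 0.18 log2 units, SE, edgeR adjusted p = 4.27e-14). Slc40a1, the exporter ferroportin, fell from 126, 108, 104, 109 and 86.1 to 35, 35.2 and 18.5 (-1.85 ± 0.23 log2 units, SE, edgeR adjusted p = 6.69e-07). The other member called lower was Ncoa4, which brings ferritin to the lysosome, at -1.04 log2 units (edgeR adjusted p = 4.75e-06), and Ftl1, Steap3 and Ireb2 were not called. The metal-binding proteins Mt2 and Mt1, which zinc and glucocorticoids both raise, had their highest LPS level in replicate 2. Mt2 stood at 0.175, 0.723, 0.675, 0.826 and 0.600 scaled CPM after saline and 32.4, 334 and 138 after LPS (8.08 ± 0.73 log2 units, SE, edgeR adjusted p = 1.71e-07) and Mt1 at 26.9, 40.3, 22.2, 28.2 and 32.0 scaled CPM after saline and 116, 607 and 269 after LPS (3.47 ± 0.40 log2 units, SE, edgeR adjusted p = 1.53e-06). Mt2 had a log2 fold change of 7.10 without MIA LPS replicate 2. Mt1 had a log2 fold change of 2.69 without MIA LPS replicate 2.

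Glucocorticoid-responsive and clock genes had 9 of 23 tested members called higher and 2 lower, with a median log2 fold change of 0.03 (7 and 5 without MIA LPS replicate 2). Zbtb16, a strongly glucocorticoid-responsive repressor, stood at 0.614, 0.0803, 2.16, 1.24 and 1.80 scaled CPM after saline and 78.0, 186 and 74.9 after LPS (6.52 ± 0.76 log2 units, SE, edgeR adjusted p = 3.86e-06). Klf9 stood at 1.58, 3.13, 2.97, 2.48 and 3.60 scaled CPM after saline and 37.7, 81.0 and 44.0 after LPS (4.29 ± 0.36 log2 units, SE, edgeR adjusted p = 8.84e-09). Nfil3, a repressor with clock-gene targets, changed by 3.46 log2 units (edgeR adjusted p = 2.73e-12). Per2, a clock repressor, stood at 0.964, 1.12, 0.810, 0.620 and 1.40 scaled CPM after saline and 5.50, 16.8 and 4.75 after LPS (3.19 ± 0.51 log2 units, SE, edgeR adjusted p = 2.17e-05). Per2 had a log2 fold change of 2.37 without MIA LPS replicate 2. The receptor gene Nr3c1 was not called (0.03 ± 0.15 log2 units, SE, edgeR adjusted p = 0.896). Nr1d2, the clock receptor REV-ERB beta, stood at 23, 33.3, 32.7, 19.5 and 23.2 scaled CPM after saline and 5.41, 27.6 and 3.10 after LPS and was not called (-1.13 ± 0.53 log2 units, SE, edgeR adjusted p = 0.101), with replicate 2 inside the saline range and the others far below it. Nr1d2 had a log2 fold change of -2.64 without MIA LPS replicate 2, then called. Nr1d2 was called with the batch 2 library counted as a replicate, by limma-voom and with the title's replicate number as a block (adjusted p from 5.96e-05 to 0.0234). In this list, too, replicate 2 departed from the rest, with medians by library of 0.13, 0.68 and 0.14.

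Immediate early, heat shock and unfolded protein genes, which also respond to dissociation of tissue, had 3 of 25 tested members called higher and 7 lower, with a median log2 fold change of -0.43. Without MIA LPS replicate 2 the counts were 5 and 4, and 12 were called lower with the batch 2 library counted as a replicate. Fosb stood at 295, 486, 358, 255 and 280.1 scaled CPM after saline and 98.5, 54.8 and 42.9 after LPS (-2.36 ± 0.37 log2 units, SE, edgeR adjusted p = 3.83e-05), Egr3 changed by -1.70 log2 units (edgeR adjusted p = 0.000508) and Jun by -1.05 log2 units (edgeR adjusted p = 0.00129). Fos was not called (-0.57 ± 0.28 log2 units, SE, edgeR adjusted p = 0.118), and MIA saline replicate 2 held its highest level at 787. Fos was called by DESeq2, with the second ID number as a block, with the batch 2 library counted as a replicate and with the title's replicate number as a block (adjusted p from 0.0166 to 0.0405). The heat shock cochaperone Dnajb1 stood at 205, 223, 89.8, 87.8 and 146 scaled CPM after saline and 60.4, 20.3 and 48.0 after LPS (-1.81 ± 0.46 log2 units, SE, edgeR adjusted p = 0.00451). Ier3, an NF-kB target that promotes survival, rose from 66.9, 125, 51.7, 81.5 and 46.8 to 335, 243 and 303 (1.98 ± 0.29 log2 units, SE, edgeR adjusted p = 1.40e-05).

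Ribosomal proteins and ribosome biogenesis genes had 23 of 27 tested members called higher and 0 lower, with a median log2 fold change of 0.97 (24 and 0 without MIA LPS replicate 2). Rps2 stood at 185, 249, 161, 216 and 189 scaled CPM after saline and 690.1, 377 and 587 after LPS (1.46 ± 0.18 log2 units, SE, edgeR adjusted p = 4.48e-07). Bop1, which processes ribosomal RNA, changed by 1.67 log2 units (edgeR adjusted p = 5.47e-07), and the small nucleolar ribonucleoprotein gene Nop56 stood at 48.2, 49.7, 33.6, 39.0 and 36.8 scaled CPM after saline and 103, 68.4 and 165 after LPS (1.44 ± 0.19 log2 units, SE, edgeR adjusted p = 9.68e-07). Nolc1, a nucleolar chaperone, changed by 1.43 log2 units (edgeR adjusted p = 8.43e-06). Ribosomal proteins have many processed copies in the genome, so the division of their reads is uncertain.

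Replication and mitosis genes were scarce, and 6 of 17 tested members were called higher and 1 lower, with a median log2 fold change of 0.43 (7 and 1 without MIA LPS replicate 2). Cdt1, which licenses origins, stood at 2.02, 0.964, 0.945, 1.72 and 2.26 scaled CPM after saline and 5.92, 4.48 and 4.75 after LPS (1.67 ± 0.35 log2 units, SE, edgeR adjusted p = 0.000358), Bub1b, a spindle checkpoint kinase, changed by 2.03 log2 units (edgeR adjusted p = 0.00675), and Mcm2, a helicase subunit, by 1.41 log2 units (edgeR adjusted p = 0.00970). Bub1b lost its call with the batch 2 library counted as a replicate (edgeR adjusted p = 0.0764). Mcm2 had a log2 fold change of 0.80 without MIA LPS replicate 1, no longer called. Mki67, a marker of cycling cells, fell from 5.70, 3.37, 4.93, 5.23 and 5.40 to 1.78, 2.60 and 2.25 (-1.15 ± 0.34 log2 units, SE, edgeR adjusted p = 0.00884).

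Set beside each other by library, the lists differed in how alike the 3 LPS libraries were. Medians of the difference from the saline mean were 2.37, 2.33 and 2.84 for chemokines, 2.32, 2.02 and 1.62 for interferon genes and -1.20, -1.68 and -1.73 for homeostatic markers in replicates 1 to 3, each outside the saline range. For phagocytic and scavenger receptors they were 0.75, -0.15 and 0.90, for NF-kB genes 0.92, 0.25 and 0.92, for the tricarboxylic acid cycle list 1.02, 0.12 and 0.93, and for lysosome genes 0.67, 0.01 and 0.42. In each of these 4 lists the median of replicate 2 was within the saline range or below it, while replicates 1 and 3 lay above. Over all genes called higher the medians were 1.02, 0.95 and 1.11, and over all called lower -1.01, -1.25 and -1.20. Since these genes were called on the same libraries, these last medians are a description only. Replicate 2 also had the highest astrocyte and oligodendrocyte marker sums of the LPS libraries, and their part in its medians was not tested.

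**Figure D5:**
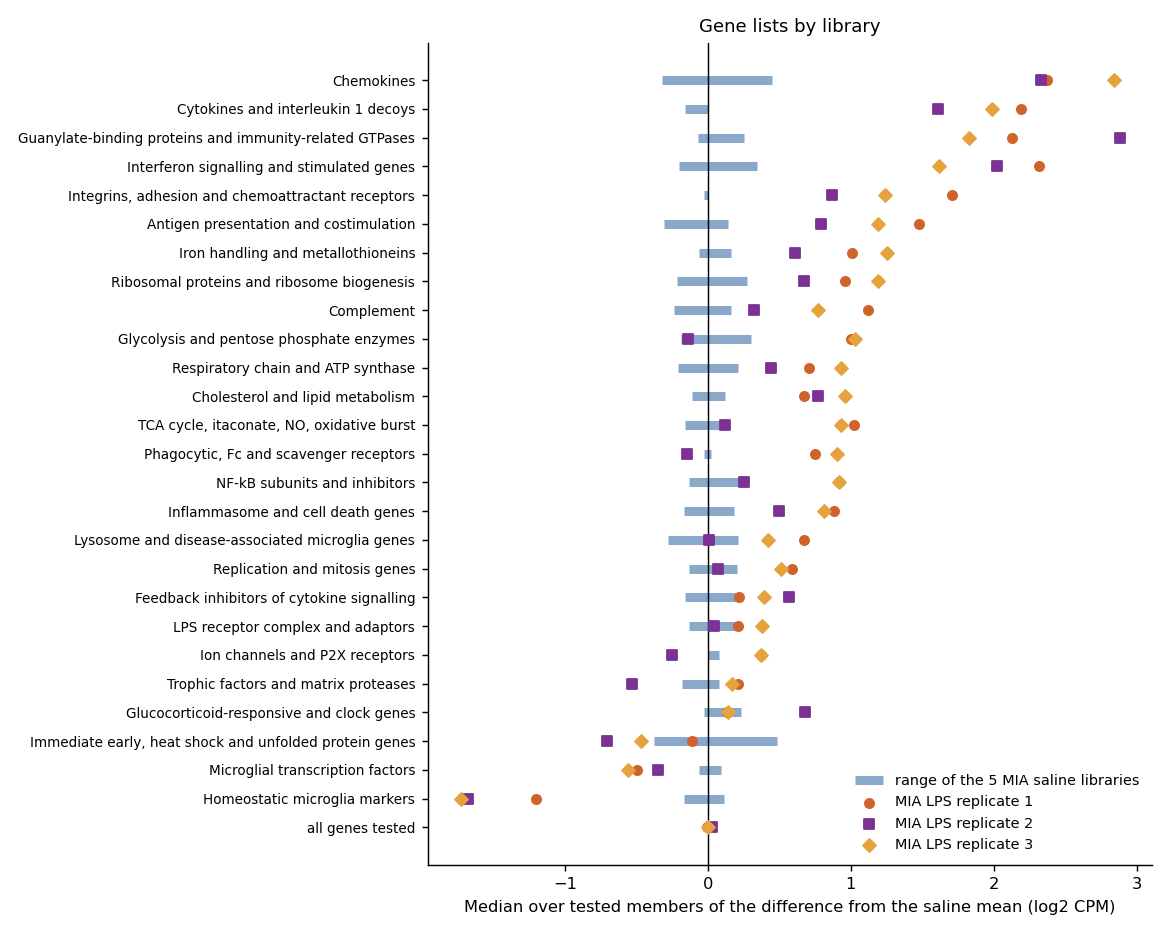
Median over the tested members of each list of the difference from the MIA saline mean (x axis, log2 CPM), for each of the 3 MIA LPS libraries, with blue bars for the range of the 5 saline libraries. Chemokine, cytokine, GTPase and interferon lists lie to the right and homeostatic markers to the left in all 3 LPS libraries. Replicate 2 (squares) lies near 0 for glycolysis (-0.14), phagocytic receptors (-0.15) and lysosome genes (0.01), where replicates 1 and 3 lie higher.

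By level per length of exon, the 5 most abundant protein-coding genes after saline were Cst3, C1qb, Ctss, Actb and Ctsd, and after LPS Cst3, C1qb, Ctss, B2m and Actb. Cst3, the protease inhibitor cystatin C, stood first in both, at 16385, 21561, 15209, 20491 and 17938 scaled CPM after saline and 11897, 13284 and 11213 after LPS (-0.59 ± 0.17 log2 units, SE, edgeR adjusted p = 0.00752). Ctss, cathepsin S, changed by 0.41 ± 0.15 log2 units (SE, edgeR adjusted p = 0.0346). Ctss had a log2 fold change of 0.30 without MIA LPS replicate 1, no longer called, 0.34 without MIA saline replicate 3, no longer called, 0.40 without MIA saline replicate 4, no longer called, and 0.37 without MIA saline replicate 5, no longer called. Ctss lost its call under RLE scaling, with the batch 2 library counted as a replicate, in a fit to the 8 MIA libraries alone, with the title's replicate number as a block and under upper quartile scaling (edgeR adjusted p from 0.0670 to 0.0831). Actb, beta-actin, was not called (0.42 ± 0.19 log2 units, SE, edgeR adjusted p = 0.0784). Actb had a log2 fold change of 0.51 without MIA saline replicate 2, then called, and 0.56 without MIA LPS replicate 2, then called. Actb was called with the batch 2 library counted as a replicate, by limma-voom and with no filter on low counts (adjusted p from 0.0143 to 0.0492).

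The batch 2 library was read apart. Of the genes called higher, 73.4% lay above all saline libraries in MIA LPS replicate 4, against 88.0% to 96.6% in replicates 1 to 3. Of those called lower, 85.3% lay below all saline libraries, against 93.5% to 97.3%. It had 0 counts for 3350 of the genes tested, where the batch 1 LPS libraries had 196 to 287, and batch and mouse cannot be told apart in it.

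The LPS response was also compared with that of control offspring, which shared no library with it. The difference between the responses was called for 0 of 14741 genes (0%) by edgeR, and for 0 by DESeq2 and by limma-voom. At an unadjusted p under 0.05 edgeR had 491 genes (3.33%), and its smallest adjusted p was 1.00. The median SE of the difference was 0.34 on the log2 scale. A 95% confidence interval of the difference within 2-fold was found for 7709 genes (52.3%), so for the rest the interval reached beyond a 2-fold difference. Leaving out MIA LPS replicate 1 gave 2 called genes, Lpar5 and Gm15801, and leaving out control saline replicate 4 gave 1, Gm12191, all 3 named after their values were seen.

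Within lists, 23 of 24 respiratory chain genes, 26 of 27 ribosome genes and 22 of 28 homeostatic markers had an interval of the difference within 2-fold, but 4 of 17 chemokines and 7 of 21 cytokines did. Tnf differed by 0.28 ± 0.40 (SE) (log2, MIA minus control) between responses of 4.04 and 3.76, and Il1b by 0.36 ± 0.65 (SE) between 4.21 and 3.85. P2ry12 differed by 0.06 ± 0.24 (SE), with -3.39 in control offspring. Glucocorticoid-responsive and clock genes had the largest share of the 26 lists at an unadjusted p under 0.05, 5 of 23. Of the 23, 21 had a higher log2 fold change in MIA, with a median difference of 0.35. Over all genes tested, 7694 of 14741 had a higher one, with a median difference of 0.02. No member of the list was called for the difference. Without MIA LPS replicate 2 the list's counts were 1 and 14 of 23, with a median difference of 0.17. In that list MIA LPS replicate 2 had a median of 0.68 against 0.13 and 0.14 in replicates 1 and 3. Tlr4 differed by -0.56 ± 0.21 (SE), with an unadjusted p of 0.0144 by edgeR, between -0.75 and -0.19. Lcn2 had 0 counts in all MIA saline libraries, so no fold difference is given for it.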

How the data were processed

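Libraries from sorted microglia were made from 5 ng of RNA by an adapted Smart-Seq2 method with 9 PCR cycles, per the labels' protocols. The deposited tables hold estimated counts per gene, which were rounded to whole numbers. The submitters' processing notes list STAR, RSEM and DESeq2. Build, annotation and strand setting: not given in the sources used here. Gene symbols were taken from GENCODE M21 (GRCm38) and promoter windows from RefSeq (GRCm38.p6).

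Genes were kept by edgeR's filterByExpr on group labels (minimum count 10, minimum total 15), which left 14741 genes, scaled by TMM and fitted with edgeR 4.0.16 (R 4.3.3) by robust quasi-likelihood over 4 groups and a batch term in 20 libraries. Adjusted p-values are Benjamini-Hochberg values over all genes tested, called under 0.05, and levels are counts scaled to 1e+06. Alternatives used limma 3.58.1 and DESeq2 1.42.0. The fit was tested on simulated data. Named genes were the 12 largest called rises and falls with mean log2 CPM of at least 3, the 4 called members of each list with the largest change, the members a list is named for, the sort markers, the 5 genes highest per length, and others chosen after their values were seen. The comparison and the gene lists were chosen with earlier results of these data known. No pair of replicate libraries was as alike as sampling noise alone would make it, so none was treated as a duplicate. Some genes that the naming rule selects are not reported here.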

Additional observations from a re-analysis of the deposited data

Results flagged for a closer look

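In 6 of 178 genes checked, 1 of the 5 MIA saline libraries lay far from the other 4, a gap that chance gives in about 1 in 20 such groups. Il1a stood at 406 scaled CPM in MIA saline replicate 2, and Fos at 787 and Itga6 at 153 in the same library. Ifnar1 stood at 67.6 and Cx3cr1 at 4363 in MIA saline replicate 1, and Cox5a at 22.7 in MIA saline replicate 4. No marker list of the 9 checked had such a library.

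The batch 2 library carried its own term in the main fit and counted as a replicate in 1 alternative only. In it neutrophil markers summed to 379 scaled CPM and monocyte markers to 125, against at most 0.321 and 5.94 in the MIA saline libraries.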

How the results depend on the processing

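Under the other scalings, filters, tools and sample sets, 2636 to 3233 genes were called higher and 2398 to 3191 lower, and with 1 MIA replicate left out 2603 to 3099 and 2211 to 2776. The share of calls that were higher moved from 53.1% to 47.7% under RLE, 46.0% under upper quartile scaling and 46.9% by DESeq2. The difference between MIA and control offspring was called for 0 to 2 genes with 1 replicate left out: 2 without MIA LPS replicate 1 (Lpar5 and Gm15801) and 1 without control saline replicate 4 (Gm12191), with the cause not tested. Of 210 genes named, chosen in part after their values were seen, 190 were called, 173 kept their call under all 20 alternatives of the MIA response and 0 reversed.

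Genes that were not called changed sign as follows. Nr3c1 was at -0.04 under RLE, -0.06 under upper quartile scaling, -0.04 by DESeq2, -0.05 by limma-voom and -0.07 with the batch 2 library counted as a replicate. With that library Itgam was at 0.21, Ifnar1 at 0.16 and Csf1r at 0.10. By limma-voom Itgam was at 0.05 and C1qc at 0.07. With 1 replicate left out, Itgam ranged from -0.13 to 0.08, Ifnar1 from -0.10 to 0.07, Ifnar2 from -0.36 to 0.05, Ifngr1 from -0.02 to 0.31, Socs1 from -0.07 to 0.63, C1qc from -0.44 to 0.18 and Nr3c1 from -0.09 to 0.19.

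Whether the title's replicate numbers pair the libraries cannot be told from so few libraries and was not tested. Deviations of same-numbered LPS and saline libraries correlated at 0.20, -0.13 and -0.24, and the pair at 0.20 shares the second ID number too. Libraries that share the second ID number, of unstated meaning, correlated at 0.20, 0.11, 0.31, 0.01 and 0.04. Those that share neither number correlated at -0.23 to 0.09. With the title's replicate numbers as a block 2937 genes were called higher and 2603 lower, and with the second ID number as a block 2961 and 2723. The replicate block ended the calls of Marco, Bhlhe40 and Ctss, and the ID block those of Ifit3 and Cebpb. The batch 2 library counted as a replicate ended those of Myd88, Mlkl, Casp1, Cd33, Bub1b and Ctss. Of 1040 list counts recomputed, 31 moved over 1.5 times, 3 of them from a count of at least 5. Depth limits genes near the floor of 3 counts, 0.0440 scaled CPM over the saline and 0.0735 over the LPS group.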
